A study of Mus musculus with 75 samples.

Results

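The genes described here are 9 genes of bile duct and liver progenitor cells, taken by symbol from the 55536 genes of a count table of mouse liver. They are the keratins Krt8, Krt18, Krt7, Krt19 and Krt23, the transcription factor Sox9, the surface proteins Epcam and Cldn4, and Spp1, which encodes osteopontin. All 9 symbols were found once each. RNA came from whole liver of male C57Bl/6 mice, and 75 libraries were sequenced from total RNA. Mice of the exposed groups received tributyltin (TBT), an organotin compound, through the mother, whose drinking water held it (3.07 µM, a daily dose of 0.5 mg/kg) up to the weaning of the litter. Vehicle groups had no TBT. At 3 weeks there were 7 vehicle and 8 TBT mice. At 5 months there were 8 vehicle mice, 16 TBT mice labelled low-risk and 10 TBT mice labelled high-risk. At 10 months there were 6 vehicle mice, 5 low-risk TBT mice, 5 samples of uninvolved liver from high-risk TBT mice, and 7 tumors of TBT mice. How mice of 5 months were sorted into the risk groups is not given in the labels. No sorting of cells is described, so each value is an average over the cell types of a liver piece. Labels give separate mouse numbers and nothing on litters, so the tests measure the spread between mice.

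Bile ducts are lined by cholangiocytes, which express keratins 7 and 19 beside keratins 8 and 18, with Sox9, Epcam and osteopontin. Hepatocytes make keratins 8 and 18 as their own filament pair and little or none of the others. In injured liver, ductular cells expand and some hepatocytes near the portal tract take up duct genes, a response often called the ductular reaction, in which Notch and YAP signaling take part. Osteopontin is also made by macrophages, and keratins 8 and 18 are stress-responsive in hepatocytes. In whole liver, more cells of a type and more RNA per cell cannot be told apart.

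Libraries held 2.83 to 45.4 M counts. Of the 75 libraries, 6 stood apart by depth, number of genes detected or mitochondrial share, namely 5-month vehicle 9, low-risk 16 and high-risk 10 and 15, a 3-week library and a vehicle library labelled as a tumor, which entered no comparison. At 5 months, 1 vehicle, 10 low-risk and 7 high-risk libraries were of sequencing batch 2, and all other libraries of the series were of batch 1. Low-risk mouse 2 of 5 months carried intestinal transcripts. A list of 8 intestinal epithelial genes, chosen after this library had been seen, summed to 1039 CPM there (CPM is the count scaled to a fixed library total), against a group median of 7.71 CPM. In that library the intestinal transcription factor Cdx2 was at 6.77 CPM and the digestive enzyme gene Sis at 219.7 CPM. High-risk mouse 10 held 165.9 CPM of the same list and high-risk mouse 1 held 88.2 CPM. Of the members, low-risk mouse 2 had the highest Krt19 and Epcam of the whole series. The comparisons of 5 months over both batches were also fitted without it. Fits of batch 1 alone, fits without a batch term and the comparison of risk differences between ages were not repeated without it.

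All 9 are protein-coding genes with positions on the mouse assembly GRCm38 (mm10, GENCODE M21). Krt8 (chr15:101996698-102004482) and Krt18 (chr15:102028180-102032027) lie close together on chromosome 15, where Krt7 (chr15:101411043-101430313) also lies. Krt19 (chr11:100140810-100148665), Krt23 (chr11:99477974-99493137) and Sox9 (chr11:112782224-112787760) are on chromosome 11. Epcam is at chr17:87635979-87651129, Spp1 at chr5:104435118-104441050 and Cldn4 at chr5:134945119-134946934. The strand setting of the counting is not given, and 3 members share exon bases with another gene. These are Krt7 with the antisense gene Gm671 over 77 bases, Krt8 with Gm36026 on the opposite strand over 101 bases, and Spp1 with Gm42793 on its own strand over 309 bases.

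The start regions of 4 members are shown, because Krt8 and Krt18 moved together across samples, Spp1 was the member called between tumor and uninvolved liver, and Cldn4 had the largest fold change of uninvolved against low-risk liver. Each runs from 250 bases before to 50 bases after a RefSeq start (GRCm38.p6), 5′ to 3′ on the gene's strand. Capitals mark matches to the letters of binding motifs on either strand. The motifs were GGAATG for TEAD, the partner of YAP, TGANTCA for AP-1, TGGGAA for RBPJ, the Notch effector, ACAAAG for SOX factors, and TATAAA for the TATA box.
Krt8 (chr15:102004293-102004592, minus strand): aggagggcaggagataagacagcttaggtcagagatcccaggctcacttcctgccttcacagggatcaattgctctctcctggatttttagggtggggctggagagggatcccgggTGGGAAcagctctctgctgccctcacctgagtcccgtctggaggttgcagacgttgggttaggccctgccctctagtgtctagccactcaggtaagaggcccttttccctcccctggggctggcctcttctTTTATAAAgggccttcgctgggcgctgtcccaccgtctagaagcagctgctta
Krt18 (chr15:102027966-102028265, plus strand): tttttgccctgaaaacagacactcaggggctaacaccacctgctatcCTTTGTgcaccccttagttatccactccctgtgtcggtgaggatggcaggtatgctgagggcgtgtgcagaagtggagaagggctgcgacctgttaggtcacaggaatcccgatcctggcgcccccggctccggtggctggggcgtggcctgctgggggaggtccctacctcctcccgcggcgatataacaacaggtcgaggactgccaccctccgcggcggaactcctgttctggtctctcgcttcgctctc
Spp1 (chr5:104434861-104435160, plus strand): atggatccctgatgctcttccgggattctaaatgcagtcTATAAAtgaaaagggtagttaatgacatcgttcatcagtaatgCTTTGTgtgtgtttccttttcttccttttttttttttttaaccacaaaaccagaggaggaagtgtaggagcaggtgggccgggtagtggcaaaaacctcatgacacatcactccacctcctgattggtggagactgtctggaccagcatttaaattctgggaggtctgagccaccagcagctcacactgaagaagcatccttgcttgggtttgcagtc
Cldn4 (chr5:134946885-134947184, minus strand): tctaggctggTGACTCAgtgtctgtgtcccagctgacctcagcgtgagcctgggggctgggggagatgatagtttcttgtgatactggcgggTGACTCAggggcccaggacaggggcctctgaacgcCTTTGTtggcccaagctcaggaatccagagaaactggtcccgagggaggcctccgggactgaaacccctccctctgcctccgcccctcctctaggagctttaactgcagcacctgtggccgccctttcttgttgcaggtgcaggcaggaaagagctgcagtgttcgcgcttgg

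The Krt8 window held 1 RBPJ match at -134 and overlapping TATAAA matches on both strands at -3 and -1, counted from the start base. Krt18 held 1 SOX match at -203. Spp1 held 1 SOX match at -168 and 1 TATAAA match at -211, and its second RefSeq start window, not shown, held 1 SOX match. Cldn4 held 2 AP-1 matches, at -240 and -158, each read on both strands, and 1 SOX match at -123. Windows of Krt7, Krt23 and Epcam were also searched and held none of the 5 motifs. Krt19 and Sox9 were not searched. Of 32851 start windows of this length, 14.7% held the TEAD letters, 7.81% the AP-1 letters, 25.6% the RBPJ letters, 18.7% the SOX letters and 13.6% the TATAAA letters. These matches are descriptions of letters and do not show binding.

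On a per-length scale (CPM per kb of the principal transcript), the 9 genes fell into tiers. In the 10-month vehicles Krt18 had a median of 86.6 and Krt8 of 64.4 CPM per kb. Spp1 followed at 20.6 CPM per kb and Sox9 at 1.60 CPM per kb. Epcam stood at 0.54, Krt19 at 0.48, Krt23 at 0.37, Krt7 at 0.13 and Cldn4 at 0.072 CPM per kb. In the tumors the medians were 228 for Krt18, 205 for Krt8, 183 for Spp1, 4.97 for Krt23, 3.57 for Epcam, 3.104 for Sox9, 2.20 for Krt19, 1.35 for Cldn4 and 0.65 for Krt7. Krt8, Krt18 and Spp1 were thus the abundant members in both groups on this per-length scale of levels.

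At 10 months the members were higher in uninvolved high-risk liver than in low-risk and vehicle liver, and higher in tumors than in vehicle liver. Tumors were not tested against low-risk liver. All 9 rose in uninvolved liver against low-risk liver (edgeR, adjusted p under 0.05), where 27.7% of all genes tested were called higher. For 8 of the 9 the groups did not overlap, against 23.2% of all genes. Against the vehicles all 9 rose as well, where 31.2% of genes were called higher, and no member overlapped, against 27.3% of genes. Tumors were higher than vehicles in all 9 (24.8% of genes called higher), again without overlap (22.3% of genes). The members' median log2 fold change was 2.04 against low-risk liver, where the median of all genes was 0.05. It was 2.05 for uninvolved liver against vehicles (all genes 0.06) and 2.01 for tumors against vehicles (all genes -0.01). The uninvolved libraries also stood apart from the other livers of that age. Their depth was 34.8 to 44.6 M counts, against at most 33.5 M in low-risk and vehicle liver. They had 24676 to 28715 genes detected, against at most 22578, and a mitochondrial share of 4.20 to 5.85%, against 2.94 to 3.08% in low-risk and 3.14 to 3.83% in vehicle liver. Tumor libraries had 22.5 to 27.9 M counts and a mitochondrial share of 2.64 to 3.46%. The part of these library differences in the results was not tested. With the vehicle tumor library added to the vehicles, 7 of 9 members were called in tumors, without Sox9 and Epcam, and 8 of 9 in uninvolved liver, without Sox9. The shares of all genes above are not those of these fits, so the changed counts are not read as a result about the members. The comparisons with vehicles share the 6 vehicle livers, and those with uninvolved liver share the 5 uninvolved samples.

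At 5 months, 8 of the 9 were higher in high-risk than in low-risk liver, where 20.3% of all genes were called higher, and all 9 were with low-risk mouse 2 left out (20.5% of genes). The members' median log2 fold change was 1.72 and that of all genes -0.01. Every member overlapped between the groups, and 2.45% of all genes were higher without overlap. Within batch 2 (7 high-risk against 10 low-risk) all 9 rose, where 16.8% of genes were called higher. Within batch 1 (3 against 6, with low-risk mouse 2 among the 6) 0 of 9 were called by edgeR, where 3.09% of genes were called higher, and Krt19 and Epcam had a negative estimate. Against the vehicles 4 of 9 rose, where 8.47% of genes were called higher. These were Epcam, Krt19, Krt23 and Spp1, and 3 of them, without Krt19, were called when low-risk mouse 2, which shares the fit, was left out (7.94% of genes). Within batch 1 alone 0% of genes were called higher against the vehicles, so the 0 of 9 members there says nothing of the members.

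**Figure D1:**
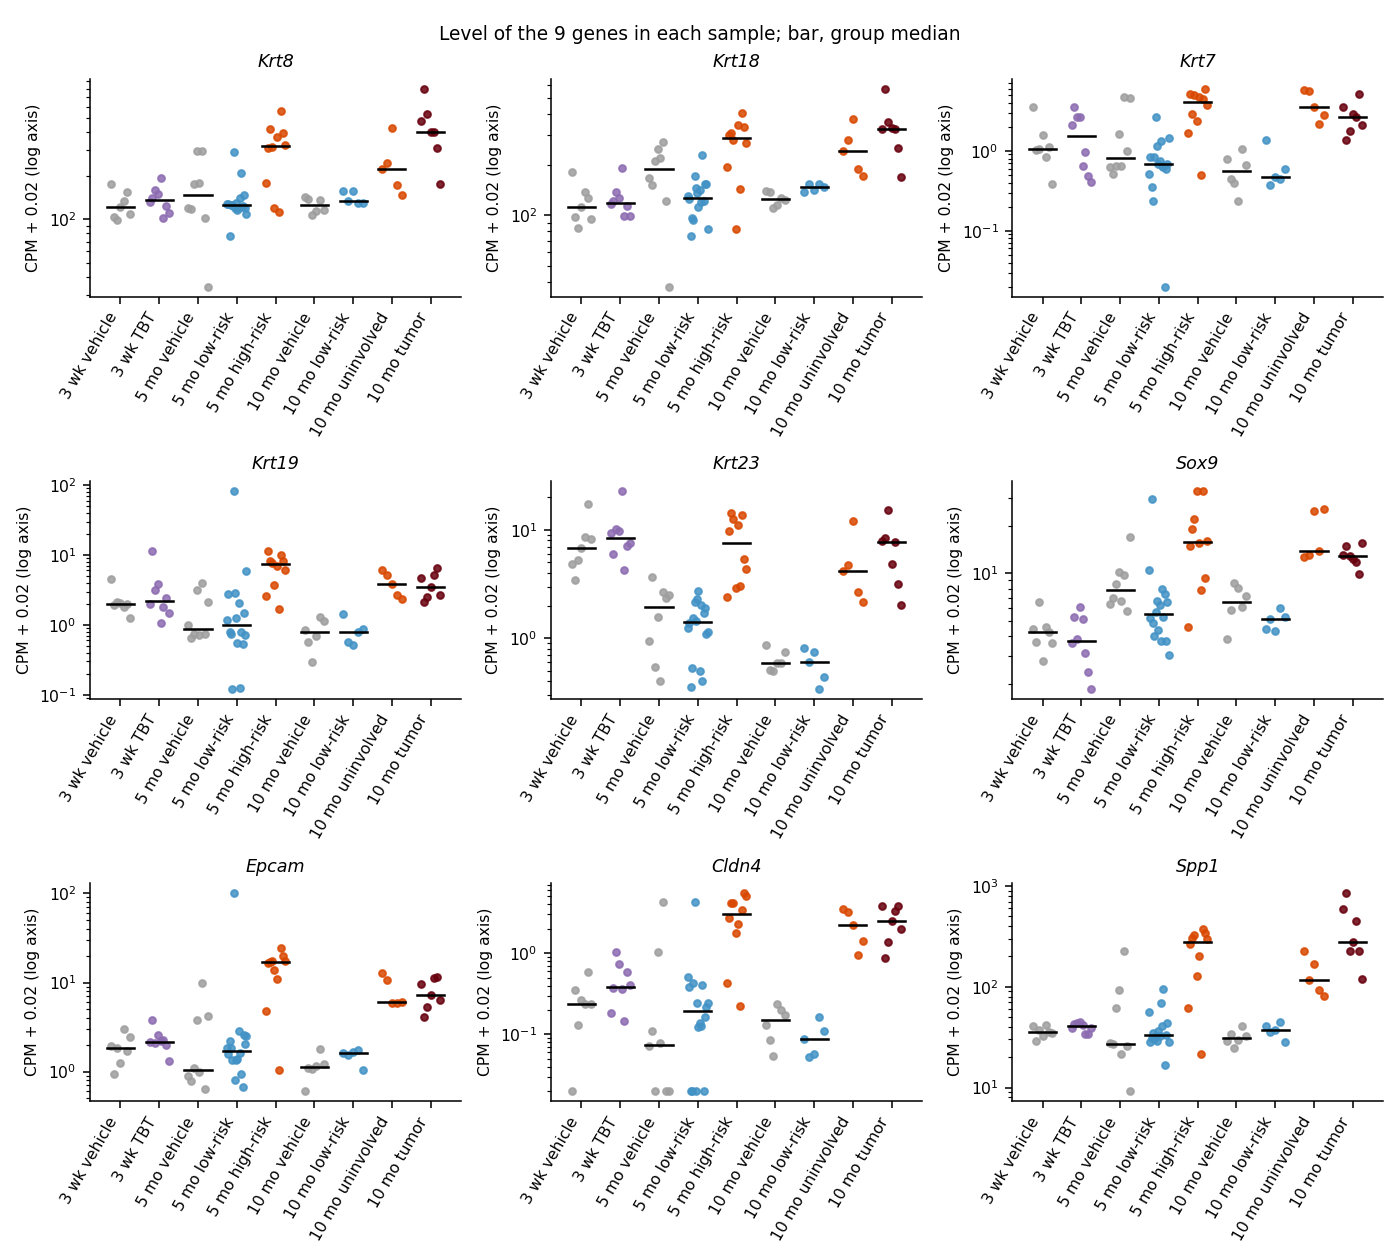
Level of each of the 9 genes (vertical axis, CPM + 0.02 on a log axis) in each of the 72 samples, by group (horizontal axis), with a bar at the group median. High-risk liver of 5 months, uninvolved liver and tumors of 10 months have the 3 highest medians for 8 of the 9 genes, Krt23 being the exception, and low-risk mouse 2 stands alone for Krt19 at 82.0 CPM and Epcam at 100.3 CPM.

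**Figure D2:**
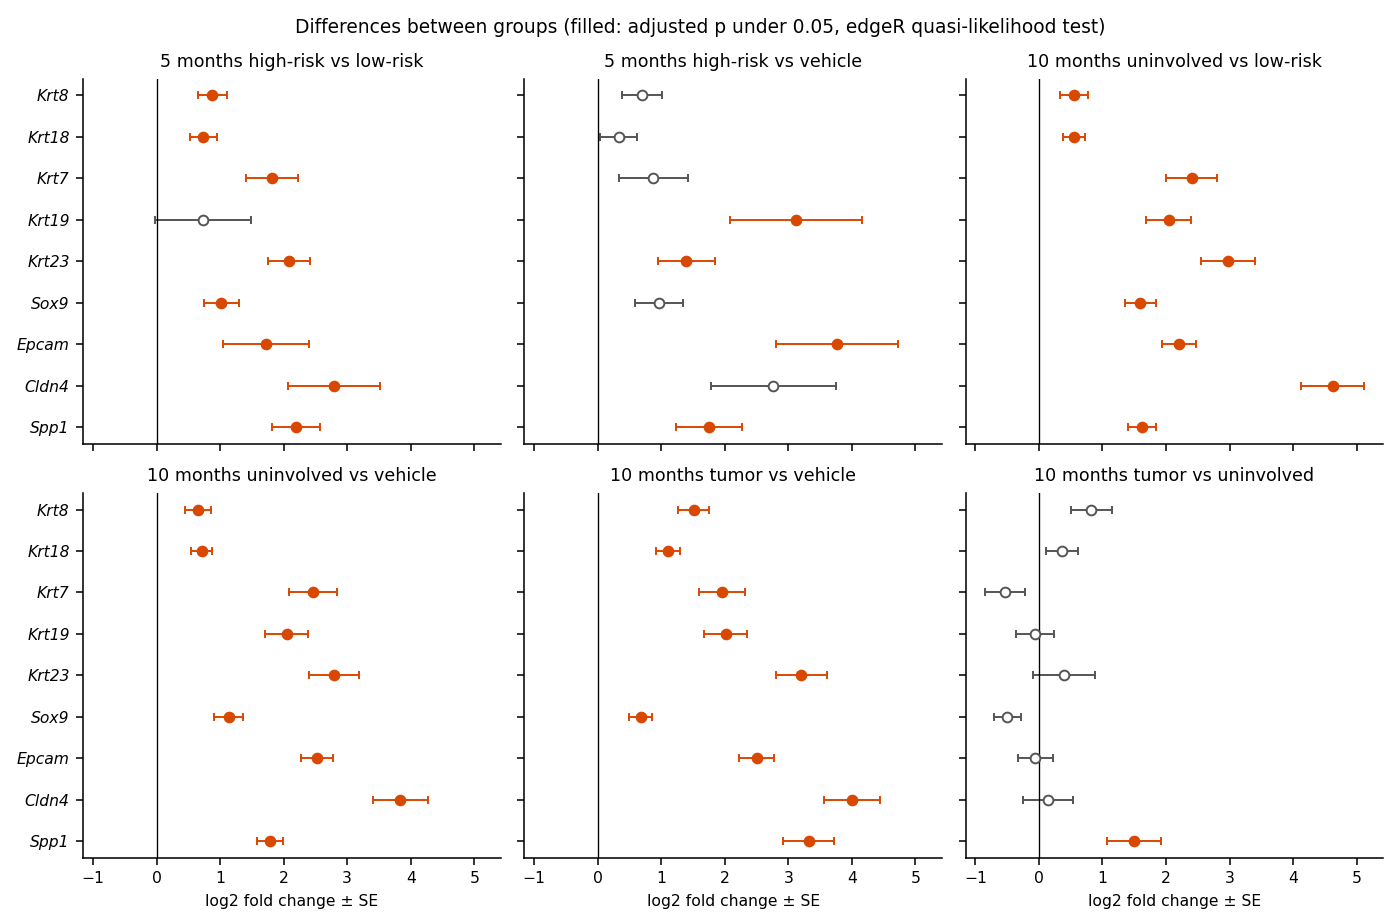
Fold changes of the 9 genes (log2, horizontal axis, with the standard error as bars) in 6 comparisons, filled where edgeR's adjusted p was under 0.05. All 9 are filled for uninvolved liver against both other groups and for tumors against vehicles, and only Spp1 is filled for tumors against uninvolved liver.

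Krt8 and Krt18 encode the type II and type I keratins of the hepatocyte filament and are also made by duct cells. In the 10-month vehicles Krt8 ranged from 107 to 142 CPM with a median of 126 CPM. The 5 low-risk livers held 129.9, 130.0, 134, 157 and 158 CPM, and the 5 uninvolved livers 147, 173, 221, 244 and 426 CPM. All but 1 uninvolved liver lay above every low-risk liver. The difference was 0.56 ± 0.22 (log2 fold change ± SE, edgeR adjusted p = 0.0403). This call was lost when any of low-risk 2, 8 or 9 or uninvolved 12 was left out (adjusted p from 0.0689 to 0.0792) and most when the highest sample, summed from uninvolved libraries 3 and 6, was left out (0.24, adjusted p = 0.147). It was also lost when only the 2 groups were fitted (adjusted p = 0.0915).

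Krt18 stood at 137.7, 142, 147.5, 153 and 154 CPM in the 5 low-risk livers and at 172, 189, 243, 282 and 374 CPM in the 5 uninvolved livers. The groups did not overlap, with a difference of 0.55 ± 0.17 (log2, edgeR adjusted p = 0.0134). Tumors reached 175 to 799 CPM of Krt8 (median 401 CPM) and 168 to 567 CPM of Krt18 (median 328 CPM). Tumor 11 was highest in both and tumor 7 lowest in both. Against vehicles the log2 fold change in tumors was 1.51 ± 0.24 for Krt8 (edgeR adjusted p = 0.000201) and 1.10 ± 0.19 for Krt18 (adjusted p = 0.000303).

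At 5 months Krt8 ranged from 112 to 565 CPM in high-risk liver (median 321.5 CPM) and from 76.1 to 290.0 CPM in low-risk liver (median 126 CPM). Krt18 ranged from 82.9 to 406 CPM (median 289 CPM) in high-risk and from 75.5 to 228 CPM (median 127 CPM) in low-risk liver. For each of the pair, 7 of 10 high-risk livers lay above all 16 low-risk livers. The log2 fold changes were 0.88 ± 0.23 for Krt8 (edgeR adjusted p = 0.00273) and 0.73 ± 0.21 for Krt18 (adjusted p = 0.00601). High-risk mice 22, 15 and 1 were the 3 lowest for Krt8, at 112, 119 and 179.7 CPM. Among the vehicles of that age, mice 4 and 6 were at 295 and 297.5 CPM of Krt8, above 3 of the 10 high-risk livers, and neither keratin was called between high-risk and vehicle liver.

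Keratins of type I and type II pair in filaments, so the per-length ratio of Krt8 to Krt18 was computed in each sample. It had a median of 0.90 in tumors (0.76 to 1.09), 0.67 in uninvolved liver (0.63 to 0.84), 0.65 in low-risk liver (0.62 to 0.84) and 0.73 in vehicles (0.69 to 0.79) at 10 months. At 5 months the medians were 0.85 in high-risk, 0.74 in low-risk and 0.61 in vehicle liver, with overlapping ranges. Ranges of tumors and uninvolved liver overlapped as well, and these ratios were not tested.

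Krt7 and Krt19 encode keratins that in liver mark duct cells. Krt7 was low throughout. The 10-month vehicles held 0.21 to 1.04 CPM (median 0.53 CPM) and the 5 low-risk livers 0.36, 0.43, 0.45, 0.57 and 1.33 CPM. The 5 uninvolved livers held 2.17, 2.76, 3.504, 5.53 and 5.72 CPM, all above every vehicle and low-risk liver. Krt7 had a log2 fold change of 2.41 ± 0.40 against low-risk liver (edgeR adjusted p = 0.000126) and 2.46 ± 0.38 against vehicles (adjusted p = 4.21e-05). Tumors held 1.35 to 5.06 CPM (median 2.64 CPM), a log2 fold change of 1.957 ± 0.36 against vehicles (adjusted p = 0.000479).

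Krt19 was also higher in uninvolved liver and tumors at 10 months. Low-risk livers held 0.49, 0.55, 0.78, 0.87 and 1.40 CPM, and uninvolved livers 2.36, 2.69, 3.78, 5.18 and 6.01 CPM, with no overlap. On the log2 scale the fold change was 2.04 ± 0.36 (edgeR adjusted p = 0.000185). Tumors held 2.09 to 6.51 CPM (median 3.47 CPM) and vehicles 0.27 to 1.26 CPM (median 0.76 CPM), a log2 fold change of 2.01 ± 0.34 (adjusted p = 0.000246).

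At 5 months Krt7 ranged from 0.48 to 5.95 CPM in high-risk liver (median 4.08 CPM) and from 0 to 2.65 CPM in low-risk liver (median 0.66 CPM), and 7 of 10 high-risk livers lay above all low-risk livers. Krt7 there had a log2 fold change of 1.81 ± 0.41 (edgeR adjusted p = 0.000553). Krt19 ranged from 1.65 to 11.6 CPM in high-risk liver (median 7.29 CPM). In low-risk liver it ranged from 0.10 to 82.0 CPM with a median of 0.97 CPM, the highest being mouse 2 and the next mouse 8 at 5.79 CPM. All 10 high-risk livers lay above the low-risk median and none above mouse 2. With all samples the log2 fold change was 0.73 ± 0.75 (adjusted p = 0.464). Without low-risk mouse 2 it was 1.87 ± 0.41 (adjusted p = 0.000497), and with the deviating libraries also left out 1.75 ± 0.46 (adjusted p = 0.00342). Within batch 2, where that mouse is absent, it was 1.56 ± 0.56 (adjusted p = 0.0458).

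Against the 5-month vehicles, Krt19 gave a log2 fold change of 3.12 ± 1.04 (edgeR adjusted p = 0.0382). This estimate also rests on low-risk mouse 2 through the batch term of the shared fit, and without that mouse it was 1.39 ± 0.56 (adjusted p = 0.0834). The vehicles held 0.63 to 4.01 CPM (median 0.84 CPM), and 7 of 10 high-risk livers lay above all of them. The call was also lost when high-risk 10 or 25, or vehicle 1, 2, 3, 5 or 8, was left out, with adjusted p from 0.0517 to 0.0739. Krt7 was at 4.73 CPM in vehicle 6 and at 4.59 CPM in vehicle 9, the shallowest library, and was not called in this comparison (0.87 ± 0.54, adjusted p = 0.279).

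Krt23, a type I keratin found in regenerating and diseased liver, had a wide range among mice. At 10 months it stood at 0.48 to 0.84 CPM in vehicles (median 0.57 CPM) and at 0.32, 0.42, 0.58, 0.72 and 0.80 CPM in low-risk liver. Uninvolved livers held 2.16, 2.67, 4.15, 4.74 and 12.01 CPM, above all of these. The log2 fold change was 2.98 ± 0.42 against low-risk liver (edgeR adjusted p = 3.04e-05) and 2.79 ± 0.39 against vehicles (adjusted p = 1.71e-05). Tumors ranged from 2.02 to 15.1 CPM (median 7.77 CPM), a log2 fold change of 3.20 ± 0.40 against vehicles (adjusted p = 3.58e-05).

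High-risk livers of 5 months held 2.36 to 14.4 CPM of Krt23 (median 7.54 CPM) and low-risk livers 0.33 to 2.73 CPM (median 1.39 CPM). Here 9 of 10 high-risk livers lay above all low-risk livers. On the log2 scale the fold change of 2.08 ± 0.33 had the smallest adjusted p of the 9 members in that comparison (edgeR, 6.96e-06). Against vehicles, at 0.38 to 3.68 CPM (median 1.93 CPM), it was 1.40 ± 0.45 (adjusted p = 0.0299). That call was lost without high-risk 12 or vehicle 1, 3, 5 or 8 (adjusted p from 0.0512 to 0.0769) and when only the 2 groups were fitted (adjusted p = 0.135).

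Krt23 was also high in young mice. The 3-week vehicles held 3.40 to 17.4 CPM (median 6.75 CPM) and the 3-week TBT mice 4.20 to 22.8 CPM (median 8.38 CPM), so that the medians of weaning liver lay near those of 5-month high-risk liver and of tumors. Among batch 1 vehicles, Krt23 fell by 2.09 ± 0.42 from 3 weeks to 5 months (log2, edgeR adjusted p = 0.000801). From 5 to 10 months it fell by 1.47 ± 0.47 (adjusted p = 0.0395), a call lost when vehicle 2, 4 or 6 of 5 months was left out (adjusted p from 0.0572 to 0.102).

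Sox9 encodes a transcription factor of duct cells and of periportal hepatocytes with duct features. At 10 months it held 3.79 to 8.72 CPM in vehicles (median 6.597 CPM) and 4.28, 4.43, 5.14, 5.29 and 5.99 CPM in low-risk liver. The 5 uninvolved samples had 12.7, 13.01, 13.8, 24.6 and 25.5 CPM, without overlap. Sox9 there had a log2 fold change of 1.60 ± 0.25 against low-risk liver (edgeR adjusted p = 6.66e-05) and 1.13 ± 0.23 against vehicles (adjusted p = 0.000527). Tumors were narrower, at 9.92 to 15.6 CPM (median 12.8 CPM), with a log2 fold change of 0.68 ± 0.18 against vehicles (adjusted p = 0.00669). Adding the vehicle tumor library to the vehicles, with Sox9 at 31.0 CPM, meant that neither comparison with vehicles was called (0.65, adjusted p = 0.162 for uninvolved liver and 0.14, adjusted p = 0.793 for tumors).

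In 5-month high-risk liver Sox9 ranged from 4.56 to 33.0 CPM (median 15.7 CPM) and in low-risk liver from 3.01 to 29.6 CPM (median 5.49 CPM). The highest low-risk value was that of mouse 16, a deviating library with a high mitochondrial share, and high-risk mouse 15, of the same kind, was at 32.9 CPM. The next low-risk value was 10.4 CPM. Sox9 had a log2 fold change of 1.02 ± 0.28 (edgeR adjusted p = 0.00394), and 1.11 ± 0.22 without low-risk mouse 2 and the deviating libraries (adjusted p = 0.000194). Against vehicles (5.77 to 16.9 CPM, median 7.77 CPM) it was 0.97 ± 0.38 (adjusted p = 0.0747).

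Epcam encodes an epithelial adhesion protein of duct and progenitor cells, and Cldn4 a claudin of tight junctions in ducts. At 10 months Epcam was at 1.01, 1.52, 1.60, 1.63 and 1.71 CPM in low-risk liver and at 5.86, 5.87, 6.01, 10.5 and 12.7 CPM in uninvolved liver. Vehicles held 0.58 to 1.76 CPM (median 1.11 CPM) and tumors 4.13 to 11.4 CPM (median 7.29 CPM). Every uninvolved and tumor sample lay above every low-risk and vehicle sample. The log2 fold change was 2.20 ± 0.26 for uninvolved against low-risk liver (edgeR adjusted p = 5.86e-06) and 2.50 ± 0.28 for tumors against vehicles (adjusted p = 1.36e-05). The latter was 1.496 with the vehicle tumor library, at 11.1 CPM, among the vehicles (adjusted p = 0.0503). Cldn4 was near the limit of detection in low-risk liver, at 0.032, 0.038, 0.067, 0.090 and 0.14 CPM. Uninvolved livers held 0.92, 1.38, 2.23, 3.21 and 3.52 CPM. The Cldn4 log2 fold change of 4.62 ± 0.49 (edgeR adjusted p = 1.92e-06) was the largest of the 9 in that comparison. Tumors held 0.85 to 3.80 CPM of Cldn4 (median 2.44 CPM) and vehicles 0.034 to 0.21 CPM (median 0.13 CPM), a log2 fold change of 3.998 ± 0.44 (adjusted p = 1.28e-05).

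At 5 months Epcam ranged from 1.03 to 24.1 CPM in high-risk liver (median 16.8 CPM). Low-risk livers ranged from 0.65 to 100.3 CPM (median 1.70 CPM), and the highest after mouse 2 was 2.86 CPM. With all samples the log2 fold change was 1.72 ± 0.68 (edgeR adjusted p = 0.0443). Without low-risk mouse 2 it was 2.70 ± 0.37 (adjusted p = 1.26e-06). With that mouse kept, the call was lost without high-risk 10, 12, 13, 17 or 25 (adjusted p from 0.0568 to 0.0760) and without the deviating libraries (adjusted p = 0.0552). High-risk mouse 22 was the lowest at 1.03 CPM, and mouse 1 next at 4.73 CPM. Against vehicles the log2 fold change was 3.77 ± 0.96 (adjusted p = 0.00795), and 2.28 ± 0.50 without low-risk mouse 2 (adjusted p = 0.00247). The vehicles held 0.62 to 9.86 CPM (median 1.03 CPM), mouse 6 being the highest.

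Cldn4 stood at 0.21 to 5.45 CPM in 5-month high-risk liver (median 3.03 CPM). In low-risk liver it ranged from 0 to 4.22 CPM (median 0.17 CPM), with 4 of 16 libraries at 0, and mouse 2 was again the highest, ahead of 0.50 CPM in mouse 11. Cldn4 had a log2 fold change of 2.79 ± 0.73 (edgeR adjusted p = 0.00251), and 3.53 ± 0.68 without mouse 2 (adjusted p = 9.59e-05). Among the vehicles 3 of 8 libraries were at 0, while mouse 6 held 4.26 CPM. Against the vehicles the log2 fold change was 2.76 ± 0.98 (adjusted p = 0.0513), and 4.46 without vehicle 6 (adjusted p = 0.00208). It was 2.02 without low-risk mouse 2 (adjusted p = 0.0945) and 1.71 without the batch term (adjusted p = 0.181). Leaving out high-risk 1, 15 or 22 or vehicle 9 gave an adjusted p of 0.0379 to 0.0445, so the call depended on single libraries.

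Spp1 encodes osteopontin, a secreted matrix protein of duct cells and of some macrophages. The 10-month vehicles held 24.8 to 40.5 CPM (median 31.0 CPM) and the low-risk livers 28.1, 35.9, 37.2, 40.8 and 44.6 CPM. Uninvolved livers held 81.1, 93.7, 118, 169 and 227 CPM. The lowest uninvolved sample was above the highest of both other groups. On the log2 scale the fold change was 1.62 ± 0.22 against low-risk liver (edgeR adjusted p = 1.88e-05) and 1.79 ± 0.20 against vehicles (adjusted p = 2.56e-06). Tumors ranged from 119.8 to 847 CPM (median 276 CPM), a log2 fold change of 3.32 ± 0.40 against vehicles (adjusted p = 3.43e-05).

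High-risk livers of 5 months held 21.7 to 370.4 CPM of Spp1 (median 281 CPM), and low-risk livers 16.6 to 95.7 CPM (median 32.9 CPM). Of the 10 high-risk livers, 8 lay above all low-risk livers, while mouse 22 was at 21.7 CPM and mouse 1 at 60.9 CPM. Low-risk mouse 2, with the intestinal transcripts, was at 32.7 CPM, near the group's median. The log2 fold change was 2.19 ± 0.38 (edgeR adjusted p = 3.10e-05). Against vehicles, at 9.18 to 225.8 CPM (median 27.2 CPM), it was 1.75 ± 0.52 (adjusted p = 0.0202), a call lost without vehicle 8 (1.57, adjusted p = 0.0656), the only vehicle of batch 2, and when only the 2 groups were fitted (adjusted p = 0.0775). Vehicles 6 and 4 were the highest at 225.8 and 92.9 CPM, and vehicle 6 was also the highest vehicle for Epcam, Cldn4, Krt7, Krt19, Krt8 and Krt18.

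Between tumor and uninvolved liver, Spp1 was the only member of 9 called, where 7.55% of all genes tested were called higher. The members' median log2 fold change was 0.14 and that of all genes -0.01. All 7 tumors were above the uninvolved median and 5 were above all 5 uninvolved samples. Spp1 had a log2 fold change of 1.49 ± 0.43 (edgeR adjusted p = 0.0309). The call was lost when uninvolved 5, 7 or 12, or tumor 1 or 5, was left out (adjusted p from 0.0515 to 0.0817) and when genes of low counts were kept (adjusted p = 0.0790). Mouse numbers pair 6 tumors with uninvolved liver. Spp1 was higher in the tumor in 6 of 6 mice, by 0.43 to 2.25 on the log2 CPM scale. In mouse 5 it went from 93.7 to 445 CPM and in mouse 1 from 227 to 592.5 CPM. With the mouse as a block, the log2 fold change was 1.02 over 6 mice (adjusted p = 0.0269). Uninvolved libraries 3 and 6 were far closer to each other than any other pair, so 4 mice were also fitted without those numbers, which gave 1.31 for Spp1 (adjusted p = 0.0218), 0.95 for Krt8 (adjusted p = 0.0188) and 1.08 for Krt23 (adjusted p = 0.0320).

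**Figure D3:**
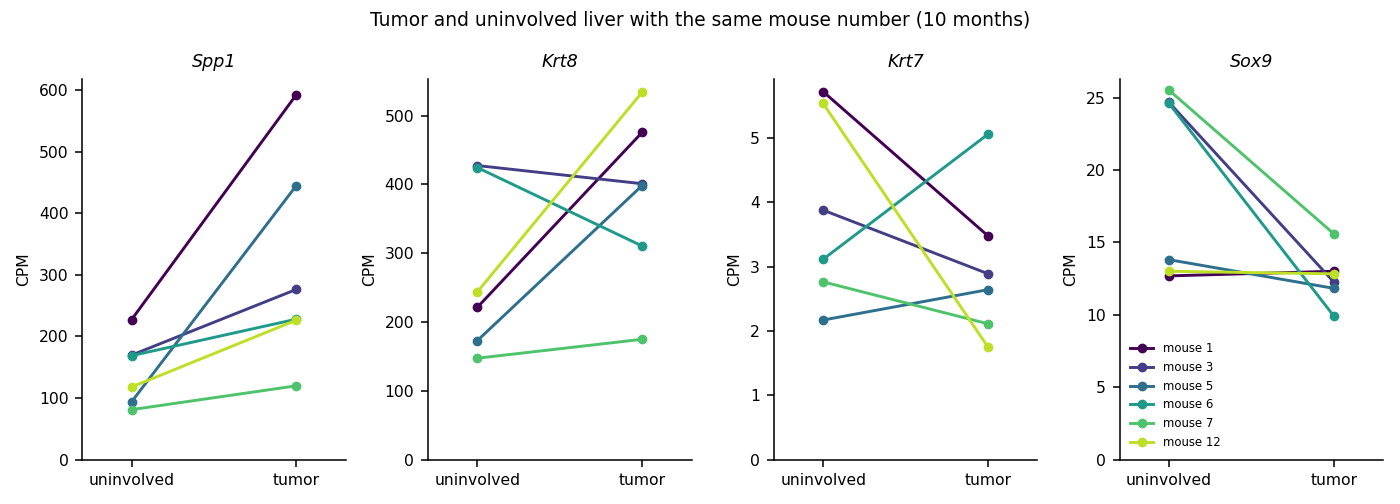
CPM of Spp1, Krt8, Krt7 and Sox9 (vertical axes) in uninvolved liver and tumor of the same mouse number, a line for each of 6 mice. Spp1 is higher in the tumor in 6 of 6 mice, Krt8 in 4 of 6, Krt7 in 2 of 6 and Sox9 in 1 of 6. Uninvolved libraries 3 and 6 are far closer to each other than any other pair, so these lines may not be independent. Krt8 is lower in the tumor only in mice 3 and 6.

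The other members differed between tumor and uninvolved liver in sign and none passed the test without the pairing. Krt8 had a log2 fold change of 0.82 ± 0.32 (edgeR adjusted p = 0.0871) and Krt18 of 0.36 ± 0.25 (adjusted p = 0.321). Krt7 was at -0.53 ± 0.32 (adjusted p = 0.251) and Sox9 at -0.50 ± 0.21 (adjusted p = 0.110). Krt19 and Epcam were close to 0, at -0.06 ± 0.31 and -0.06 ± 0.28 (adjusted p = 0.898 and 0.891). Krt23 was at 0.39 ± 0.49 and Cldn4 at 0.14 ± 0.39 (adjusted p = 0.590 and 0.820). Krt8 was called when tumor 7 was left out (0.95, adjusted p = 0.0344) or the sample summed from uninvolved 3 and 6 (1.14, adjusted p = 0.0199). Tumors 11 and 12 had the highest Krt8, at 799 and 534 CPM, with the lowest Krt7, at 1.35 and 1.75 CPM, and the lowest Krt19, at 2.09 and 2.49 CPM.

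At 3 weeks, 0 of the 8 members tested differed between TBT and vehicle livers, where 0% of 14050 genes were called by edgeR. At an unadjusted p under 0.05 there were 474 genes. Spp1 was at 33.6 to 44.5 CPM (median 40.3 CPM) in TBT and 28.7 to 41.8 CPM (median 35.4 CPM) in vehicle mice, a log2 fold change of 0.18 ± 0.08 (adjusted p = 0.999). Cldn4 fell below the filter on low counts, with medians of 0.37 and 0.22 CPM. Krt19 was at 11.4 CPM in TBT mouse 2, against 1.03 to 3.87 CPM in the other TBT mice. TBT mouse 4, labelled male, had 348 CPM of the X inactivation transcript Xist and 7.08 CPM summed over Y-linked genes. Its members lay inside their group's range except for Sox9 and Spp1, where it was the highest at 6.07 and 44.5 CPM, and 0 members were called without it. Between low-risk and vehicle liver 0 of 9 members were called as well, at 5 months (0% of 14773 genes) or at 10 months (0% of 16338 genes). At an unadjusted p under 0.05 there were 934 and 688 genes. At 5 months Krt19 and Epcam had log2 estimates of 2.39 ± 0.88 and 2.04 ± 0.79 between those groups (adjusted p = 0.616 and 0.673). Without low-risk mouse 2 they were -0.48 ± 0.55 and -0.42 ± 0.48 (both adjusted p = 0.967). DESeq2 also called 0 members in these 3 comparisons.

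Among batch 1 vehicles, 3 of 8 members tested changed from 3 weeks to 5 months, where 24.2% of all genes were called in either direction. Sox9 rose by 1.25 ± 0.22 (log2, edgeR adjusted p = 0.000232) from a 3-week median of 4.22 CPM, and Krt18 rose by 0.83 ± 0.25 (adjusted p = 0.0177). The Krt18 call was lost without the filter on low counts (adjusted p = 0.118) and with only the 2 ages fitted (adjusted p = 0.0518). Krt23 fell, as given above. Without vehicle 9, which has 2.83 M counts, Krt8 and Spp1 were called as well (0.77 and 1.18, adjusted p = 0.00176 and 0.0238). From 5 to 10 months 1 of 8 changed, Krt23, where 14.1% of genes were called. All 8 estimates for that interval were negative, from -0.50 to -1.60. Without vehicle 9, 4 members were called lower, namely Krt23, Krt8 (-0.68, adjusted p = 0.0129), Krt18 (-0.79, adjusted p = 0.000801) and Spp1 (-1.24, adjusted p = 0.0371). Without vehicle 4 or vehicle 6, which held high levels of several members, 0 were called. For the fits without a vehicle no share of all genes is given, so a changed count is not read as a result about the members. As an interaction, the difference of high-risk (uninvolved at 10 months) from low-risk liver was compared between the ages. Here 0 of 9 members and 0.353% of genes were called in either direction by edgeR, with 1958 genes at an unadjusted p under 0.05. Estimates of this interaction ran from -0.56 for Spp1 (edgeR adjusted p = 0.789) to 1.83 for Cldn4 (adjusted p = 0.607), with standard errors of 0.37 to 1.24. Low-risk mouse 2 of 5 months is in this fit, which was not repeated without it. Krt19, Epcam and Cldn4, of which that mouse held the most in its group, had the largest standard errors (1.16, 1.03 and 1.24).

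Other duct and progenitor genes were taken from lists written from general knowledge. Counts for these and for all lists below stand against the shares of all genes called. At 5 months these shares were 20.3% higher and 18.5% lower. They were 27.7% and 24.7% in uninvolved against low-risk liver, and 24.8% and 21% in tumors against vehicles. Of 12 wider biliary genes, 9 were tested at 5 months and 6 rose in high-risk against low-risk liver. Bicc1 and Pkhd1, genes of tubule architecture mutated in cystic disease, rose by 2.39 ± 0.27 and 1.67 ± 0.22 (log2, edgeR adjusted p = 7.69e-08 and 6.12e-07). In uninvolved against low-risk liver 8 of 10 rose and 1 fell, with a median of 2.45, and Ehf, an epithelial transcription factor, rose by 3.05 ± 0.31 (adjusted p = 1.11e-06). In tumors against vehicles 7 of 9 rose. Of 10 genes of the ductular reaction and progenitors, 6 of 10 rose and 1 fell at 5 months, and 6 of 9 rose in uninvolved liver. Ncam1, an adhesion molecule of reactive ductules, rose by 3.52 ± 0.49 and 3.38 ± 0.33 (adjusted p = 1.12e-06 and 7.77e-07). In tumors 8 of 9 rose, among them Prom1 by 2.51 ± 0.25 and Sox4 by 2.91 ± 0.30 (adjusted p = 5.92e-06 and 7.60e-06). Between tumors and uninvolved liver, 0 of 9 of this list were called, and of 12 wider biliary genes 1 fell.

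Of the Notch pathway, 3 of 8 tested genes rose in 5-month high-risk against low-risk liver, 6 of 10 in uninvolved liver and 5 of 9 in tumors against vehicles, and none fell. Notch3 rose by 1.18 ± 0.23 and the ligand Jag1 by 0.62 ± 0.14 at 5 months (log2, edgeR adjusted p = 0.000117 and 0.000480), and the target Hey1 by 1.28 ± 0.26 in uninvolved liver (adjusted p = 0.000761). Of 8 YAP target genes, 4 rose and 2 fell at 5 months, 4 rose and 1 fell in uninvolved liver, and 5 rose and 1 fell in tumors. Ankrd1 rose by 3.13 ± 0.41 in uninvolved liver and Ccn2 by 1.92 ± 0.19 in tumors (adjusted p = 1.52e-05 and 6.11e-06). Nuak2 of that list fell by 1.11 ± 0.15 at 5 months (adjusted p = 6.31e-07). Of 10 hepatocyte identity genes, 4 fell and 1 rose at 5 months, 5 fell and 1 rose in uninvolved liver, and 5 fell in tumors against vehicles. Cebpa fell by 0.95 ± 0.19, 0.98 ± 0.11 and 0.45 ± 0.08 in the 3 comparisons (adjusted p = 0.000122, 2.73e-06 and 0.000503).

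Of 10 junction genes beside Cldn4 and Epcam, 1 rose and 3 fell at 5 months, 3 rose and 2 fell in uninvolved liver and 2 rose and 2 fell in tumors against vehicles. Cdh1, the epithelial cadherin, rose by 1.08 ± 0.16 at 5 months and 1.42 ± 0.19 in uninvolved liver (log2, edgeR adjusted p = 1.87e-06 and 2.10e-05), and Cldn7 by 2.50 ± 0.40 in uninvolved liver (adjusted p = 8.60e-05), while Cldn2, a claudin of hepatocytes, fell by 0.94 ± 0.16 at 5 months (adjusted p = 1.60e-05). Of 7 receptors of osteopontin, of which Cd44 is also on the ductular list, 4 rose at 5 months, 2 in uninvolved liver and 5 in tumors. Cd44 rose by 0.87 ± 0.15, 0.76 ± 0.19 and 0.98 ± 0.13, and the integrin subunit Itga4 by 1.09 ± 0.18, 0.87 ± 0.16 and 0.96 ± 0.13 (adjusted p at most 0.00369).

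Of the marker genes called, those of lipid-associated macrophages, stellate cells and mesothelium mainly rose and those of Kupffer cells mainly fell. The part of these cell types in the results was not tested. Of 9 genes of lipid-associated macrophages, which also express Spp1, 8 rose and 1 fell in each of these 3 comparisons, Lpl by 2.71 ± 0.22 at 5 months, 2.51 ± 0.19 in uninvolved liver and 3.19 ± 0.27 in tumors (log2). Their summed level was 257 to 730.0 CPM in 5-month high-risk and 70.8 to 559.7 CPM in low-risk liver. It was 226 to 390.0 CPM in uninvolved liver, 228 to 671 CPM in tumors, 78.3 to 149 CPM in low-risk and 41.4 to 118 CPM in vehicle liver of 10 months. In 3-week vehicles it was 417.5 to 868 CPM, while Spp1 was at 28.7 to 41.8 CPM there. Of 8 stellate cell and fibroblast genes, 7, 6 and 6 rose and 1 fell in each. They summed to 294 to 1197 CPM in 5-month high-risk, 84.5 to 191 CPM in low-risk, 181 to 448.5 CPM in uninvolved and 197 to 497 CPM in tumor samples. At 3 weeks they reached 551 to 1037 CPM in vehicles. Of 6 Kupffer cell genes, 2 fell and 1 rose at 5 months, 6 fell in uninvolved liver and 3 fell in tumors. Of 6 mesothelial genes, 2 of 5 tested rose at 5 months, 3 of 6 in uninvolved liver and 3 of 6 in tumors. They summed to 6.47 to 18.4 CPM in high-risk and 3.46 to 10.6 CPM in low-risk liver of 5 months, and to 10.3 to 18.3 CPM in uninvolved and 4.58 to 8.20 CPM in low-risk liver of 10 months.

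The summed level of 7 pancreatic acinar genes was 0.14 to 6.27 CPM in uninvolved and 0.074 to 4.09 CPM in tumor samples. It reached 56.1 CPM in high-risk mouse 1 and 31.8 CPM in vehicle 9 of 5 months, and 12.6 CPM in low-risk mouse 10 of 10 months. Of these genes 0 passed the filter at 5 months and 2 in uninvolved against low-risk liver, where Cela2a fell by 4.23 ± 0.76 (log2, edgeR adjusted p = 0.000252). Of 6 gallbladder and intestinal genes, Cdx1 and Cdx2 were at 0 in all uninvolved livers, and Cdx1 in all 10-month vehicles and low-risk livers. The 8 intestinal genes added later summed to 7.73 to 40.1 CPM in uninvolved liver and 6.94 to 21.5 CPM in tumors, against 5.49 to 11.5 CPM in low-risk liver and 5.78 to 10.7 CPM in vehicles of 10 months. Sis was at 0 in all uninvolved livers and tumors. Only Vil1 and Lgals4 of this list were tested at 10 months. Vil1, an actin-bundling gene of brush borders also made in bile ducts, rose by 4.14 ± 0.85 in uninvolved against low-risk liver and by 3.41 ± 0.54 in tumors against vehicles (edgeR adjusted p = 0.00107 and 0.000211). It also rose by 4.08 ± 0.79 in uninvolved liver against vehicles (edgeR adjusted p = 0.000524). In high-risk liver against vehicles at 5 months Vil1 rose by 4.91 ± 1.58 (edgeR adjusted p = 0.0317). Low-risk mouse 2 shares that fit and held 77.9 CPM of Vil1, and high-risk mouse 10 held 28.5 CPM. No value of Vil1 without these mice is given. Between high-risk and low-risk liver at 5 months 0 of 2 tested genes of this list were called. Lgals4 fell by 0.62 ± 0.16 in tumors (adjusted p = 0.00543).

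The members also varied together among mice of a group. To describe this, the mean of each group and batch was taken from log2(CPM + 0.1), and Pearson's r was computed over 71 samples, which share libraries, depth and tissue makeup. Krt8 and Krt18 had r = 0.92, and Spp1 had r = 0.77 with Krt8 and 0.72 with Krt18. Krt19 and Krt7 had r = 0.70, Epcam and Krt7 0.67, and Epcam and Krt19 0.75. The last fell to 0.57 without low-risk mouse 2, over 70 samples. Cldn4 had r = 0.61 with Epcam and 0.67 with Spp1 without that mouse. Krt7 and Krt18 had r = 0.16, Epcam and Krt18 0.14, and Sox9 no r above 0.34. The keratins of hepatocytes with Spp1 thus had high r among themselves, and the duct keratins with Epcam had high r among themselves, and r between these sets was at most 0.41 apart from Epcam and Spp1 (0.59).

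**Figure D4:**
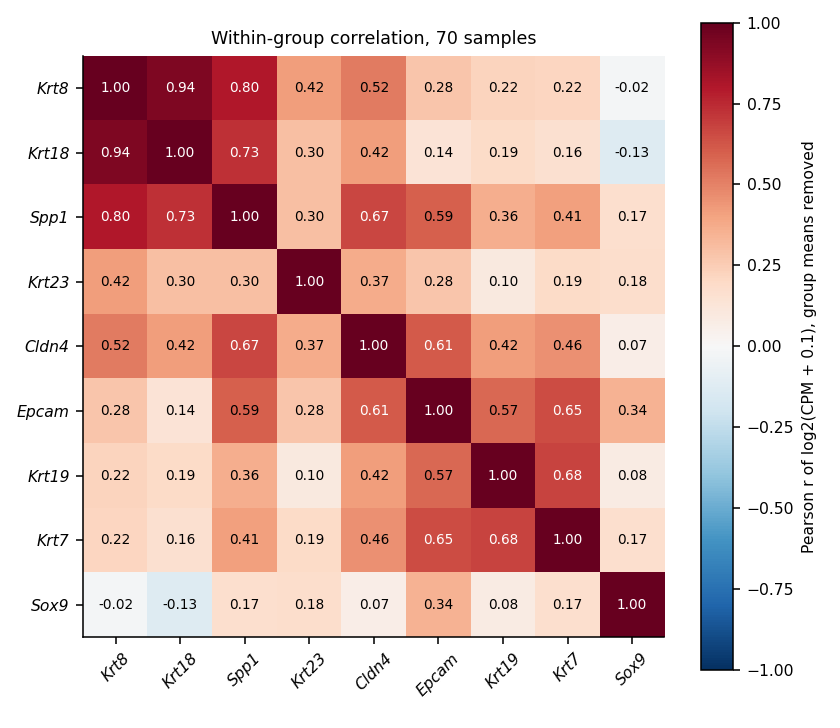
Pearson's r between the 9 genes over 70 samples, without low-risk mouse 2, after the means of each group and batch were removed from log2(CPM + 0.1), as color and number. Krt8, Krt18 and Spp1 have r from 0.73 to 0.94 with each other, and Epcam, Krt19 and Krt7 from 0.57 to 0.68.

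**Figure D5:**
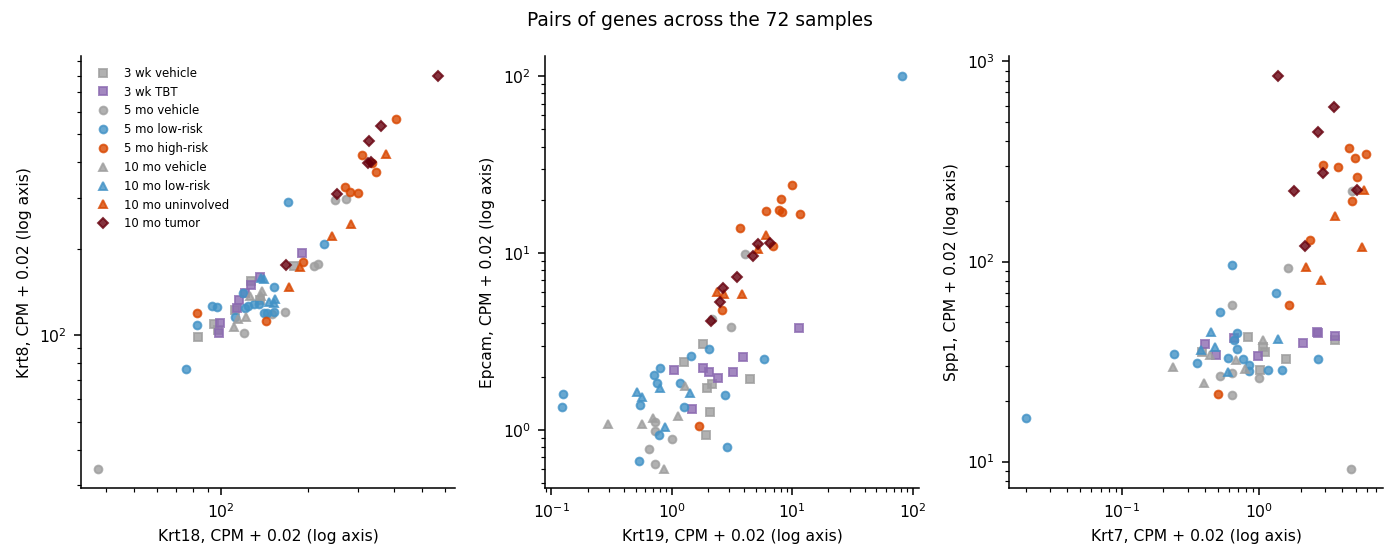
CPM + 0.02 (log axes) of Krt8 against Krt18, Epcam against Krt19 and Spp1 against Krt7 in the 72 samples, colored by group. Krt8 and Krt18 lie along a line, low-risk mouse 2 of 5 months stands alone in Epcam (100.3 CPM) and Krt19 (82.0 CPM), and tumor 11 has the highest Spp1 (847 CPM) with low Krt7 (1.35 CPM).

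The 2 genes most like each member were sought by the same r among the 13285 genes whose mean reached 1 CPM. Krt8 was most like Krt18 (r = 0.92) and Wdr1 (0.89), and Krt18 most like Krt8 and Lmna (0.89), the gene of lamin A. Ehf was among the genes most like Krt7 (0.78), and Krt19 was most like Fcgbp (0.81) and Ezr (0.76). Without low-risk mouse 2 these last were 0.70 and 0.56, and Ezr was no longer near the top, at rank 28. Epcam was most like Slc5a1 (0.86) and Spint1 (0.81), which without that mouse had r of 0.74 and 0.70 and ranks 9 and 25. Cldn4 was most like Epcam (0.70) and Htatip2 (0.70), at 0.61 and 0.66 and ranks 24 and 7 without it. Spp1 was most like Gas6 (0.83) and Ifngr1 (0.83). Sox9 was most like Slc29a3 and Fem1c (both 0.74), and Krt23 most like Abcb1a (0.66) and Reep4 (0.65), the lowest r of the 9.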

How the data were processed

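Total RNA of mouse liver was sequenced as stranded libraries, per the labels' protocols. Reads were trimmed with Trim Galore, aligned with HISAT2 to mm10 and counted with featureCounts, per the submitters' processing notes, and whether the counting used strand is not given in the sources used here. The table as deposited holds a whole-number count for each gene and library, adjusted with ComBat-seq by the authors, per the file's name, so that a batch difference may already be reduced before any fit. Of 55536 gene IDs, 55450 matched GENCODE M21.

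The pair of libraries labelled vehicle mouse 3 at 3 weeks was summed. Uninvolved libraries 3 and 6 were summed too and counted as 1 sample, because of the closeness of their counts. These differed by a mean chi-square of 4.20 and a median of 0.56 per gene, against a mean of 16.7 in the next closest pair. Genes with more than 100 counts summed over the pair were used. That left 72 samples in the comparisons.

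The test was the robust quasi-likelihood test of edgeR 4.0.16 (R 4.3.3) with TMM scaling and filterByExpr, and p-values were adjusted by Benjamini-Hochberg over all genes tested, with 0.05 as the threshold. Standard errors were derived from the fold change and the F statistic. The 3 groups of 5 months were fitted together with batch as a term, the 3 non-tumor groups of 10 months together, and tumors with 1 other group. Ages were compared among batch 1 vehicles. Tumor and uninvolved liver were paired by the mouse number of their titles. Deviations of same-numbered samples correlated at -0.27 to 0.65 over 6 pairs (median 0.003). Depth was 2.83 to 45.4 M counts a library, so counts below about 1 CPM rest on few reads in the shallow libraries, and the model covers counting error and the spread between mice. DESeq2 1.42.0, other size factors, no filter, other sample sets (among them the vehicle tumor library counted as a vehicle), blocks and left-out samples were alternatives. The scripts were tested on simulated data.

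The genes named were all 9 members, up to 2 called genes of each list with the smallest adjusted p in each of 3 comparisons, and the 2 genes most correlated with each member. One gene that this rule names is not reported here. The members and lists were chosen with earlier results of these data known, and the intestinal list and the analyses without low-risk mouse 2 were added after the data were seen. Genes of Cdx2, Sis, Xist and the Y chromosome were named after their values were seen. A library was called deviating at a depth below 5 M counts, with more than 35000 genes detected, or with a mitochondrial share above 10%.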

Additional observations from a re-analysis of the deposited data

Results flagged for a closer look

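Groups of 5 to 10 samples were tested, so that 5-month low-risk liver with 16 was not. In 13 of 72 sets of 1 gene in 1 group, the highest or lowest sample lay far from the others by Dixon's test. The test flags about 1 in 20 sets of independent, normally distributed values. CPM need not be so distributed and the sets share samples, so no excess is read from the 13. At 5 months vehicle 6 was far above the other vehicles for Epcam (9.861 CPM), Spp1 (225.8 CPM) and Cldn4 (4.263 CPM), and vehicle 9, the shallowest library, for Sox9 (16.95 CPM). At 10 months low-risk 10 was high for Krt7 (1.333 CPM), low-risk 9 low for Epcam (1.015 CPM), and the sample summed from uninvolved 3 and 6 high for Krt23 (12.01 CPM). At 3 weeks vehicle 1 was high for Krt7 (3.512 CPM) and Krt19 (4.47 CPM) and vehicle 6 for Krt23 (17.45 CPM). TBT mouse 2 was high for Krt19 (11.41 CPM), and TBT mouse 5 for Krt23 (22.78 CPM) and Krt18 (191.5 CPM).

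The vehicle library labelled as a tumor, with 11.5 M counts, was used in no comparison of the report. It lay above all 6 vehicle livers of 10 months for 7 members. These were Krt7 at 2.78, Krt19 at 2.259, Krt23 at 4.692, Sox9 at 31.02, Epcam at 11.12, Spp1 at 159.4 and Cldn4 at 1.651 CPM. It is 1 library, so the difference has no replicate check.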

How the results depend on the processing

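Of 1304 values of single members under an alternative, 1168 kept their direction and side of the threshold, 71 lost a call, 46 gained one and 19 changed sign. The cause was not tested. Shares of all genes called under an alternative were given above for the batches and for low-risk mouse 2. For other alternatives no share stands beside the count, so a changed count is not read as a result about the members. The count of members called, 8 of 9 between high-risk and low-risk liver at 5 months, was 0 in batch 1 alone. It was 7 to 9 with 1 high-risk mouse or low-risk mouse 2 left out. Other low-risk mice were not left out singly. Against vehicles it was 4, and 1 without the filter, 2 with only the 2 groups, 2 without the batch term and 0 in batch 1 alone. With 1 high-risk mouse, 1 vehicle or low-risk mouse 2 left out it was 1 to 6. Between tumor and uninvolved liver it was 1, and 0 without the filter, 2 in DESeq2, 2 with all 4 groups of 10 months and 0 to 2 with 1 sample left out. Pairing by mouse as a block gave 1 over 6 mice and 3 over 4 mice. From 3 weeks to 5 months it was 3, and 2 without the filter or with only the 2 ages. It was 5 without the deviating libraries and 3 to 5 with 1 vehicle of 5 months left out. From 5 to 10 months it was 1, and 0 without the filter, 4 in DESeq2 and 0 with only the 2 ages. It was 4 without the deviating libraries and 0 to 4 with 1 vehicle of 5 months left out. Vehicles of the other ages were not left out singly.

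Other groups share only replicate numbers, and a block over these keeps only the mice whose number is in both groups. That left 3 pairs for high-risk, 4 for uninvolved liver and 4 for tumors against vehicles. It left 6 pairs from 3 weeks to 5 months and 5 from 5 to 10 months. With the numbers as a block, 2 members were called between high-risk and vehicle liver, 8 between uninvolved and vehicle liver and 9 between tumors and vehicles. Between ages 4 were called from 3 weeks to 5 months and 1 from 5 to 10 months. The last was Krt18 (adjusted p = 0.0346) in place of Krt23 (adjusted p = 0.108).

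Signs changed as follows. Between high-risk and low-risk liver Krt19 was at -0.23 without the batch term and at -1.49 in batch 1, and Epcam at -0.30 in batch 1. Low-risk mouse 2 was in each of these fits. Against vehicles Krt18 was at -0.062 in batch 1 and Sox9 at -0.45 with the block of 3 pairs. Between tumor and uninvolved liver, Krt19 was at 0.057 with the block of 6 mice and from -0.22 to 0.10 with 1 sample left out. Epcam was at 0.15 with that block, at 0.0034 with uninvolved 3 and 6 separate, and from -0.16 to 0.10 with 1 sample left out. Cldn4 ran from -0.056 to 0.36 with 1 sample left out. From 3 weeks to 5 months Krt7 was at -0.21 with the block of 6 pairs and from -0.0094 to 0.70 with 1 vehicle of 5 months left out. All are log2 fold changes from edgeR.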
